A study of Mus musculus with 9 samples.

Results

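The genes described here are 10 components of the NF-κB pathway: the subunits Nfkb1, Nfkb2, Rela and Relb, the inhibitors Nfkbia, Nfkbib, Nfkbie and Nfkbiz, and the negative regulators Tnfaip3 and Tnip1. They were taken by symbol, each matched 1 Ensembl identifier among 54838 in the count table, and all 10 passed the filter on low counts that left 13153 tested genes. RNA-seq was collected from PDA530 Met, a line of mouse pancreatic ductal adenocarcinoma. It was grown out of a metastasis in the liver of a KPC male, a genetic model of this cancer, on a mixed 129/SvJae/C57Bl/6 background that all groups share. The knockout group was a single-cell clone (E4) in which CRISPR/Cas9 had disrupted Zdhhc20, which encodes a palmitoyltransferase. The control group was a single-cell clone (C5) that had received the same guide RNAs without being edited, and the parental group was the uncloned line (once written PDA50 Met in the labels). Each group had 3 libraries. All cultures were untreated, so no cytokine or other NF-κB stimulus had been added in any group. Each clone group is 1 clone, so its libraries are replicates of that clone and an effect of the edit and a difference between clones cannot be told apart.

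NF-κB transcription factors are dimers of Rel-family proteins. In resting cells IκB proteins such as the product of Nfkbia hold RelA-p50 dimers in the cytoplasm, and signals from TNF, interleukin-1 and Toll-like receptors activate the IκB kinase complex, which marks IκB for degradation. A second, noncanonical branch processes the Nfkb2 product p100 to p52, which pairs with RelB. NF-κB in turn transcribes several of its own inhibitors, among them Nfkbia, Nfkbie, Nfkbiz and Tnfaip3, so that their RNA is widely used as a readout of the pathway, and chronic NF-κB activity is a known feature of pancreatic cancer.

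Total counts ranged from 16525869 to 23192701 per library. Zdhhc20 was at 33.9 to 42.5 CPM (TMM-scaled counts relative to library size) in the knockout libraries and at 75.3 to 123 CPM in the others. The knockout libraries thus carried less Zdhhc20 RNA than the others but were not at 0. All 9 ductal epithelial markers had counts in every group, but Epcam and Cldn4 averaged at most 1.48 CPM in any of them. The summed ductal markers were lower in the knockout libraries, at 4410 to 4550 CPM, than in the control libraries, at 7290 to 9750 CPM, or the parental libraries, at 6820 to 8300 CPM. The markers did not move together: Cdh1, Krt8, Krt18, Krt19 and Muc1 were called lower in the knockout clone than in both groups, Epcam and Cldn4 were called higher than in both, and Krt7 and Sox9 were not called against the parental cells. Markers of leukocytes, endothelium and fibroblasts each summed to at most 4 CPM in any library, and Adgre1, Tyrobp, Cd3e, Emcn, Col1a2, Col3a1, Dcn and Lum held 0 counts throughout. Only Cd68 and Pdgfra of these markers passed the filter, at group means of at most 1.85 and 2.94 CPM. Pdgfra was called lower in the knockout clone than in both groups, and Cd68 lower than in the control clone. Mitochondrial transcripts held 3.45% to 4.11% of counts in the control clone, 1.58% to 2.2% in the knockout clone and 1.2% to 1.62% in the parental cells. The part of these differences in the results that follow was not tested.

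The NF-κB genes did not move as a block. In the knockout clone 4 of the 10, Nfkb2, Nfkbib, Nfkbie and Tnfaip3, were higher than in both other groups, as were 8.19% of all tested genes, and 1, Nfkbiz, was lower than in both, as were 13.4%; Tnip1 and Nfkb1 were called in neither knockout comparison of the test described next. Here, called means that the quasi-likelihood test of edgeR gave an adjusted p (Benjamini-Hochberg, all tested genes) under 0.05. The edited and the unedited clone were compared first: 5 of the 10 genes were called higher and 1 lower, where 42.9% of all tested genes were called (18.7% higher, 24.2% lower). The median log2 fold change of the 10 genes was 0.45, against -0.02 over all tested genes. The uncloned line served as another reference for the knockout clone: 6 were called higher and 1 lower, where 31.4% of tested genes were called (13.1% higher, 18.3% lower), and the median was 0.56 against -0.01. The unedited clone was also set against the line it came from: 2 were called higher and 1 lower, where 21.4% of tested genes were called (10.4% higher, 11% lower), with a median of 0.06 against 0.01. These comparisons share libraries, so their results are not independent of each other. The count over all genes against the parental cells fell from 4131 to 2515 without parental replicate 3 and to 2626 without knockout replicate 1, where 7 and 5 of the 10 genes were still called. In the comparison without the knockout clone the count fell from 2814 to 1472, 1537 or 1792 without parental replicate 1, 2 or 3, where 2 of the 10 genes were called each time.

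**Figure D1:**
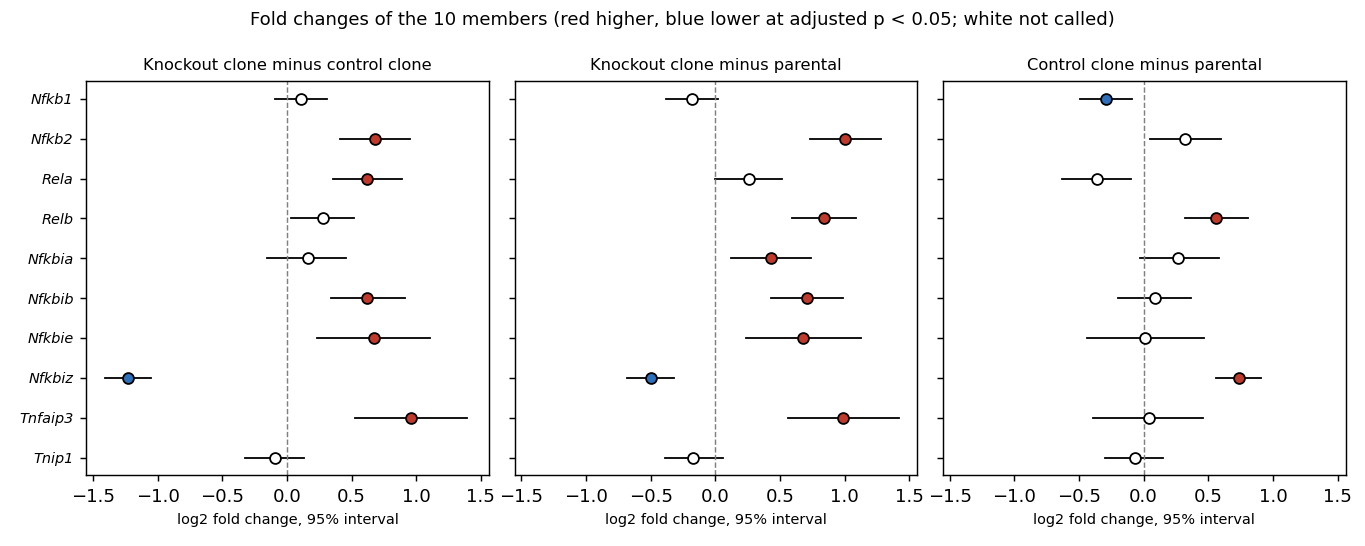
Log2 fold changes of the 10 genes in the 3 comparisons (points) with 95% intervals from the fit (lines); red points were called higher, blue lower, and white points were not called. Nfkbiz is the gene called in all 3 panels, at -1.23, -0.50 and 0.74, and Tnip1 is called in none.

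Several of these genes are classical NF-κB targets, so the promoter windows that hold κB letters are shown first. RefSeq windows on GRCm38.p6 reach from 250 bases before to 50 bases after an annotated start and were at hand for 7 of the 10 genes (10 windows), but not for Nfkb1, Relb and Nfkbiz. The κB consensus, on either strand, was found in windows of Nfkb2, Nfkbia, Tnfaip3 and Tnip1 and not in those of Rela, Nfkbib and Nfkbie. Over all 32851 windows of the same length, 5.8% held it, a share of windows and not of genes. Nfkb2 had 3 windows, each with a match, and Tnfaip3 had 2, of which only the first, printed below, had a match. Capitals mark the matches, which overlap themselves on the opposite strand where they are palindromes, and each window is written 5′ to 3′ on the strand of its gene.
Nfkb2, first start, chr19:46304487-46304786, plus strand: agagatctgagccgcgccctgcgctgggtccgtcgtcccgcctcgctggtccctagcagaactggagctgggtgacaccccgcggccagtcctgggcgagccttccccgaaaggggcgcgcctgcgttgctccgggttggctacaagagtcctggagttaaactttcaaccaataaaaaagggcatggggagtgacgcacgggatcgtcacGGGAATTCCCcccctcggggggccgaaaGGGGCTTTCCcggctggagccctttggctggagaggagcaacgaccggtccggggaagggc
Nfkb2, second start, chr19:46305445-46305744, plus strand: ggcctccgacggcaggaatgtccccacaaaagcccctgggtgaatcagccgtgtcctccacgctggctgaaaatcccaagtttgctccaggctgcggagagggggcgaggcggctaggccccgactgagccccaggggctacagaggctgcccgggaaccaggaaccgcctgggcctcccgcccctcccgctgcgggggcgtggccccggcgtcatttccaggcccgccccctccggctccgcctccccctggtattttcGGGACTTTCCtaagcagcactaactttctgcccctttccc
Nfkbia, chr12:55492598-55492897, minus strand: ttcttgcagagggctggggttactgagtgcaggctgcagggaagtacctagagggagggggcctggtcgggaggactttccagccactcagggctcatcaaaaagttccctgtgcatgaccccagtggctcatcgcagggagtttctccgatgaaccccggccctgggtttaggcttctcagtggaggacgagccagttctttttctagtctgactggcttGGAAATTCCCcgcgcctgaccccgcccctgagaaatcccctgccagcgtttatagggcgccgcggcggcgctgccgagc
Tnfaip3, chr10:19015361-19015660, minus strand: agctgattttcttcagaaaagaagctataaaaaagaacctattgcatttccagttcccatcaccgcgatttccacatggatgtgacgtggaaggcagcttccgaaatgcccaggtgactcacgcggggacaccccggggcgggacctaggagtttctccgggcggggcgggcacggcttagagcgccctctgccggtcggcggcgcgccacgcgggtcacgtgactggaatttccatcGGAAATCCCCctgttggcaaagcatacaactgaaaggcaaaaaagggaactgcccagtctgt
Tnip1, chr11:54962891-54963190, minus strand: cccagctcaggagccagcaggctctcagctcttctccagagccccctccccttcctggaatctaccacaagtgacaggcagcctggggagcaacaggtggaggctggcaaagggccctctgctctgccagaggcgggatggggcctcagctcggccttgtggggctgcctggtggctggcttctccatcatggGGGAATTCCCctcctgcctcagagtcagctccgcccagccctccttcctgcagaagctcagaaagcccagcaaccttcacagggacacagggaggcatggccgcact
With the start as position 1 and the base before it as -1, the matches of the first Nfkb2 start were GGGAATTCCC at -39 to -30 and GGGGCTTTCC at -11 to -2. The second Nfkb2 start had GGGACTTTCC at 11 to 20, which a further, overlapping Nfkb2 window also holds. Nfkbia had GGAAATTCCC at -29 to -20 and Tnfaip3 had GGAAATCCCC at -12 to -3, both matches of the opposite strand. Tnip1 had the palindrome GGGAATTCCC, the same letters as the first Nfkb2 window, at -57 to -48. Of the 4 genes with a match, Nfkb2 and Tnfaip3 were called higher in both knockout comparisons, Nfkbia in 1 of them and Tnip1 in neither, while Nfkbib and Nfkbie, with no match in these windows, were called higher in both. A match is a run of letters and was not tested as a binding site.

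Of the subunits, Nfkb2, which encodes p100 and its product p52, differed most. Nfkb2 (ENSMUSG00000025225, chr19:46304320-46312385, plus strand) was at 93.4, 93.5 and 86.5 CPM in knockout replicates 1 to 3, 51.6, 68.8 and 50.4 CPM in the same control replicates and 47.4, 47.3 and 41.7 CPM in the parental ones. The knockout libraries lay above all others, and control replicate 2 was the closest to them. Nfkb2 was 1.6-fold higher than in the control clone (log2 0.68, SE 0.12, adjusted p 0.0018) and 2.01-fold higher than in the parental cells (log2 1, SE 0.12, adjusted p 0.000382). The control clone and the parental cells did not overlap either, but their difference of 0.32 (95% interval 0.05 to 0.60) was not called (adjusted p 0.0893), except without control replicate 3, where it was 0.40 (adjusted p 0.0312); without control replicate 2 it was 0.16 (adjusted p 0.16). Nfkb2 shares 299 exon bases with Psd and 531 with AC114539.1 on the opposite strand; Psd averaged at most 0.659 CPM in any group and AC114539.1 was not among the tested genes.

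RelB is the partner of p52, and its gene was lowest in the parental line and not in the control clone. Relb (ENSMUSG00000002983, chr7:19606217-19629438, minus strand) was at 13.2, 14 and 14 CPM in knockout replicates 1 to 3, 12.4, 11.2 and 10.3 CPM in the same control replicates and 7.56, 7.96 and 7.47 CPM in the parental ones. All 6 clone libraries stood above the 3 parental ones. Against the parental cells Relb was 1.79-fold higher in the knockout clone (log2 0.84, SE 0.11, adjusted p 0.00055) and 1.48-fold higher in the control clone (log2 0.56, SE 0.11, adjusted p 0.0071). Between the clones the libraries did not overlap, but the difference of 0.28 (95% interval 0.03 to 0.52) was not called (adjusted p 0.0638); it was called with total-count scaling (0.31, adjusted p 0.0468) and without control replicate 1 (0.35, adjusted p 0.0437). Relb was therefore the 1 member set apart in the parental line, where 2.14% of tested genes were called lower than in both clones.

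Rela encodes the main transactivating subunit of the canonical dimer. Rela (ENSMUSG00000024927, chr19:5637483-5648130, plus strand) was at 96.2, 91.8 and 83.6 CPM in knockout replicates 1 to 3, 56.5, 69.8 and 50.1 CPM in the same control replicates and 76.7, 76.9 and 73.2 CPM in the parental ones. Here the control clone was the low group and the parental cells lay between, with no overlap between any of the 3 groups. In the knockout clone Rela was 1.54-fold above the control clone (log2 0.62, SE 0.12, adjusted p 0.00233). Against the parental cells its difference of 0.26 (95% interval 0 to 0.52) was not called (adjusted p 0.117), though it was when the fit held these groups alone (adjusted p 0.00491) and without control replicate 2 or 3 (adjusted p 0.0196 and 0.0397). The control clone against the parental cells gave -0.36 (adjusted p 0.0525), just past the threshold, and was called in 7 of 17 alternatives, with -0.51 without control replicate 2 (adjusted p 0.00293).

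Nfkb1, which encodes p105 and p50, showed the smallest differences of the knockout clone among the subunits. Nfkb1 (ENSMUSG00000028163, chr3:135584655-135691547, minus strand) was at 81.5, 75.6 and 79.4 CPM in knockout replicates 1 to 3, 67.8, 68.6 and 82.7 CPM in the same control replicates and 88.4, 86.7 and 92.6 CPM in the parental ones. The parental libraries were highest, and control replicate 3 lay above the knockout libraries while the other control libraries lay below them. The difference of the knockout clone was 0.11 from the control clone (95% interval -0.09 to 0.31, adjusted p 0.346), but 0.21 and called without control replicate 3 (adjusted p 0.0284). From the parental cells it was -0.18 (95% interval -0.38 to 0.02, adjusted p 0.155), and this was called without control replicate 3 (adjusted p 0.0343) and when the fit held these groups alone (adjusted p 0.0197). Both intervals leave out a change of 1.5-fold. The control clone was called lower than the parental cells by 0.29 on the log2 scale (adjusted p 0.0461), a call lost in 11 of 17 alternatives (adjusted p 0.00337 to 0.132 over all 17), including each fit that left out 1 library other than control replicate 3.

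**Figure D2:**
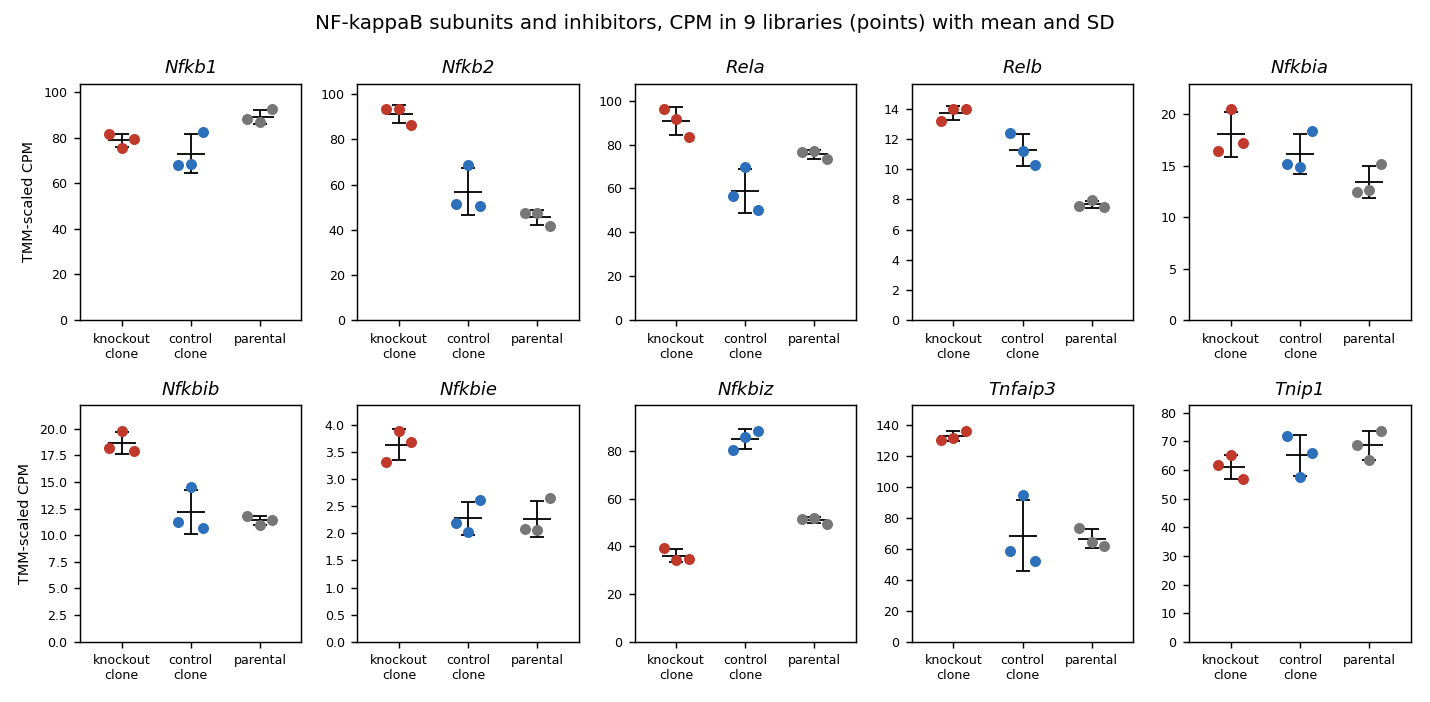
CPM after TMM scaling of the 10 genes in each of the 9 libraries (points), with the mean and SD of 3 libraries per group; each axis starts at 0. Nfkb2, Nfkbib, Nfkbie and Tnfaip3 are highest in the knockout clone, Nfkbiz is highest in the control clone and lowest in the knockout clone, and control replicate 2 stands above the other control libraries for Tnfaip3.

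Of the classical inhibitors, the ones encoding IκBβ and IκBε were higher in the knockout clone than in both other groups, while the one encoding IκBα was not. Nfkbib (IκBβ, ENSMUSG00000030595, chr7:28758251-28767512, minus strand) was at 18.2, 19.8 and 17.9 CPM in knockout replicates 1 to 3, 11.2, 14.5 and 10.7 CPM in the same control replicates and 11.8, 11 and 11.4 CPM in the parental ones. The knockout libraries were above all others, which overlapped each other. Nfkbib was 1.54-fold higher than in the control clone (log2 0.62, SE 0.13, adjusted p 0.00357) and 1.64-fold higher than in the parental cells (log2 0.71, SE 0.13, adjusted p 0.0028). The control clone differed from the parental cells by 0.09 (95% interval -0.20 to 0.37, adjusted p 0.669). Nfkbib shares 42 exon bases with Sirt2 and 314 with Ccer2, both on the opposite strand. Sirt2 averaged 44.6, 51.7 and 42.4 CPM in the knockout, control and parental groups and was called in neither knockout comparison, and Ccer2 was not among the tested genes.

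Nfkbie (IκBε, ENSMUSG00000023947, chr17:45555703-45563169, plus strand) was the least abundant member. It was at 3.32, 3.89 and 3.68 CPM in knockout replicates 1 to 3, 2.18, 2.02 and 2.62 CPM in the same control replicates and 2.07, 2.06 and 2.65 CPM in the parental ones, from 458 counts in all. The knockout libraries were again above all others. It was 1.59-fold higher than in the control clone (log2 0.67, SE 0.20, adjusted p 0.0209) and 1.61-fold higher than in the parental cells (log2 0.68, SE 0.20, adjusted p 0.0263). Both calls depended on which libraries were in the fit. The first was lost without knockout replicate 2 or 3 or control replicate 1 (adjusted p 0.0644, 0.0563 and 0.0596). The second was lost without any 1 knockout library or parental replicate 1 or 2 (adjusted p 0.0546 to 0.0983). Their sizes stayed between 0.60 and 0.81. Both calls were also lost without a filter on low counts (adjusted p 0.0516 and 0.0659).

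Nfkbia (IκBα, ENSMUSG00000021025, chr12:55489410-55492647, minus strand) encodes the inhibitor that NF-κB induces most rapidly. It was at 16.4, 20.5 and 17.2 CPM in knockout replicates 1 to 3, 15.2, 14.9 and 18.4 CPM in the same control replicates and 12.4, 12.6 and 15.2 CPM in the parental ones. The clones overlapped each other, and the knockout libraries lay above the parental ones. The difference between the clones was 0.16 (95% interval -0.15 to 0.46, adjusted p 0.375), which leaves out a change of 1.5-fold. Nfkbia was called higher in the knockout clone than in the parental cells (log2 0.43, SE 0.14, adjusted p 0.0392), a call lost in 7 of 17 alternatives, among them the fits without any 1 knockout library, control replicate 1 or parental replicate 1 or 2 (adjusted p 0.0513 to 0.143).

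Nfkbiz was the member with the largest difference and the only one of the 10 called lower in the knockout clone. It encodes IκBζ, an atypical nuclear IκB that acts as a cofactor on a subset of NF-κB targets and does not hold dimers in the cytoplasm. Nfkbiz (ENSMUSG00000035356, chr16:55811375-55838899, minus strand) was at 39.4, 34.1 and 34.9 CPM in knockout replicates 1 to 3, 80.4, 85.8 and 88.5 CPM in the same control replicates and 51.5, 51.9 and 49.5 CPM in the parental ones. The 3 groups were separate, with the knockout clone lowest and the control clone highest, so the parental line stood between its clones. In the knockout clone Nfkbiz was 2.35-fold below the control clone (log2 -1.23, SE 0.08, adjusted p 9.16e-06) and 1.41-fold below the parental cells (log2 -0.50, SE 0.08, adjusted p 0.00169). The control clone was 1.66-fold higher than the parental cells (log2 0.74, SE 0.08, adjusted p 0.000446). All 3 calls held in each of 17 alternatives. Among tested genes, 5.13% were called in all 3 comparisons.

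Tnfaip3 encodes A20, a ubiquitin-editing enzyme that ends signalling from TNF and Toll-like receptors, and its level stood out in the knockout clone. Tnfaip3 (ENSMUSG00000019850, chr10:19000910-19015657, minus strand) was at 130, 131 and 136 CPM in knockout replicates 1 to 3, 58.4, 94.3 and 51.9 CPM in the same control replicates and 73.4, 64.4 and 61.7 CPM in the parental ones. The knockout libraries were close together and above all others, and control replicate 2 was above every parental library while the other control libraries were below them. Tnfaip3 was 1.94-fold higher than in the control clone (log2 0.96, SE 0.19, adjusted p 0.00333) and 1.99-fold higher than in the parental cells (log2 0.99, SE 0.19, adjusted p 0.00412). The first value was 1.27 without control replicate 2. The control clone and the parental cells differed by 0.04 (95% interval -0.39 to 0.46, adjusted p 0.916), a value that changed sign to -0.27 without control replicate 2 (adjusted p 0.0513). Tnip1 encodes ABIN1, which binds A20, and was called in no comparison. Tnip1 (ENSMUSG00000020400, chr11:54910785-54962917, minus strand) was at 61.6, 65.1 and 56.7 CPM in knockout replicates 1 to 3, 72, 57.7 and 65.8 CPM in the same control replicates and 68.6, 63.4 and 73.7 CPM in the parental ones. Each pair of groups overlapped, and the differences of the knockout clone were -0.09 (95% interval -0.32 to 0.13, adjusted p 0.489) and -0.17 (-0.39 to 0.06, adjusted p 0.24), intervals that leave out a change of 1.5-fold.

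By position of the libraries alone, 6 of the 10 genes were higher in every knockout library than in all 6 others (Nfkb2, Rela, Relb, Nfkbib, Nfkbie and Tnfaip3) and 1, Nfkbiz, was lower. Over all tested genes these shares were 15.6% and 18.6%. The control libraries were outermost for Nfkbiz (highest, as 11.4% of tested genes were) and Rela (lowest, 10.9%), and the parental libraries for Nfkb1 (highest, 8.75%) and for Nfkb2 and Relb (lowest, 6.45%). Between the unedited clone and its line, 5 of the 10 genes had no overlapping libraries, where 37.3% of tested genes had none, against 7 (51.6%) for the clones and 9 (61.5%) for the knockout clone and the parental cells. By calls against both other groups, 1 of the 10 genes, Nfkbiz, was higher in the control clone (7.01% of tested genes) and 0 were lower (6.41%). In the parental cells 0 were higher (3.7%) and 1, Relb, was lower, of 5.85% of tested genes apart there in either direction. Control replicate 2 leaned towards the knockout libraries in 4 of the genes called against the control clone, at 68.8 CPM for Nfkb2, 69.8 CPM for Rela, 14.5 CPM for Nfkbib and 94.3 CPM for Tnfaip3, each the highest control value. The same library had the lowest Zdhhc20 of its group, at 85.8 CPM against 120 and 123 CPM, and the lowest summed ductal markers, at 7290 CPM against 9590 and 9750 CPM. Without it the log2 fold changes against the control clone were 0.84 for Nfkb2, 0.77 for Rela, 0.77 for Nfkbib and 1.27 for Tnfaip3, larger as their choice implies. For the other genes called there it was the lowest control library of Nfkbie and lay between the others for Nfkbiz, whose values without it were 0.60 and -1.22.

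Levels of different genes were compared per length, as CPM per kilobase of annotated exon. Rela had the highest mean level in all 3 groups, at 29.5 ± 2.07 in the knockout clone, 19.1 ± 3.27 in the control clone and 24.6 ± 0.673 in the parental cells (CPM per kb, SD, n = 3). Nfkbie had the lowest, at 1.19 ± 0.0952, 0.748 ± 0.102 and 0.742 ± 0.11 CPM per kb, and Relb the next lowest. The order between them differed by group. In the parental cells Tnip1 came next after Rela, at 19.4 ± 1.46 CPM per kb, and Nfkbiz, Nfkb2, Tnfaip3 and Nfkbia followed at 10.2, 9.91, 9.2 and 8.32 CPM per kb, each overlapping its neighbour in that row. Nfkb1 and Nfkbib were lower, at 7.4 and 5.25 CPM per kb, without overlap. In the knockout clone Nfkb2 and Tnfaip3 took places 2 and 3, at 19.9 ± 0.87 and 18.3 ± 0.431 CPM per kb, and Nfkbiz took place 7, at 7.2 ± 0.573 CPM per kb. Tnip1, in place 4 there, overlapped Tnfaip3. In the control clone Nfkbiz took place 3, at 16.9 ± 0.827 CPM per kb, and Rela, Tnip1 and Nfkbiz overlapped in turn. Exon length was summed over all annotated transcripts, so a gene whose cells use a short isoform is placed too low.

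**Figure D3:**
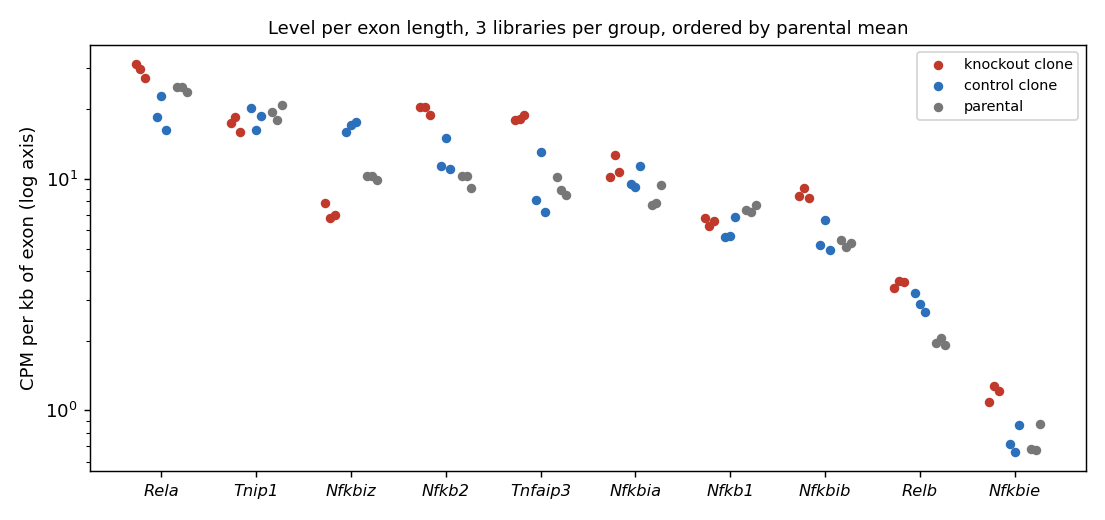
CPM per kilobase of exon of the 10 genes in each library, on a log axis and ordered by the parental mean, with 3 points per group. By group mean Rela is highest and Nfkbie lowest in each group, although single control libraries of Tnip1 and Nfkbiz lie above Rela, and by mean Nfkbiz has place 3 in the control clone and the parental cells and place 7 in the knockout clone.

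Clones can differ from their line over whole chromosomes, so each gene was set beside the tested genes of its chromosome. The median log2 fold change of chromosome 16, which carries Nfkbiz, was -0.35 against the control clone and -0.29 against the parental cells (402 other genes), and that of the 20 tested genes nearest to Nfkbiz was -0.31 and -0.26. Nfkbiz itself was 0.88 below its chromosome's median in the first comparison and 0.20 below it in the second, where 27.1% of the chromosome's genes were as low or lower. The 95% interval of Nfkbiz against the parental cells was -0.68 to -0.32, and the part of the chromosome in its level was not tested. Chromosome 12, which carries Nfkbia, had a median of -0.25 between the knockout and control clones and 0.30 between the unedited clone and its line (465 other genes), where Nfkbia was at 0.16 and 0.27. On chromosome 17 the medians were 0.14 and 0.21 in the knockout comparisons, against 0.67 and 0.68 for Nfkbie. Chromosome 19 was at 0.18 against the control clone and 0.02 against the parental cells, below Nfkb2 by 0.50 and 0.98 and below Rela by 0.44 and 0.24. The medians of chromosomes 7 and 10 lay between -0.07 and 0.05 in the same comparisons. The 20 genes nearest to Relb on chromosome 7 had medians of -0.21 and 0.14 there. Between the unedited clone and its line their median was 0.41, with 7 called higher and 1 lower, against 0.56 for Relb itself. The part of this neighbourhood in the level of Relb was not tested. Tnfaip3 was higher than 96.1% and 98% of the tested genes of chromosome 10, although the 20 nearest genes were also shifted, with medians of 0.33 and 0.19. Chromosomes 9 and 13 carry none of the members and had the lowest and highest medians against the control clone, -0.53 and 0.33 (748 and 542 genes). Against the parental cells they were at -0.53 and 0.12. Of the other pathway genes that follow, only Tnfaip2 was set beside its chromosome. The part of the chromosome in their values was not tested.

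**Figure D4:**
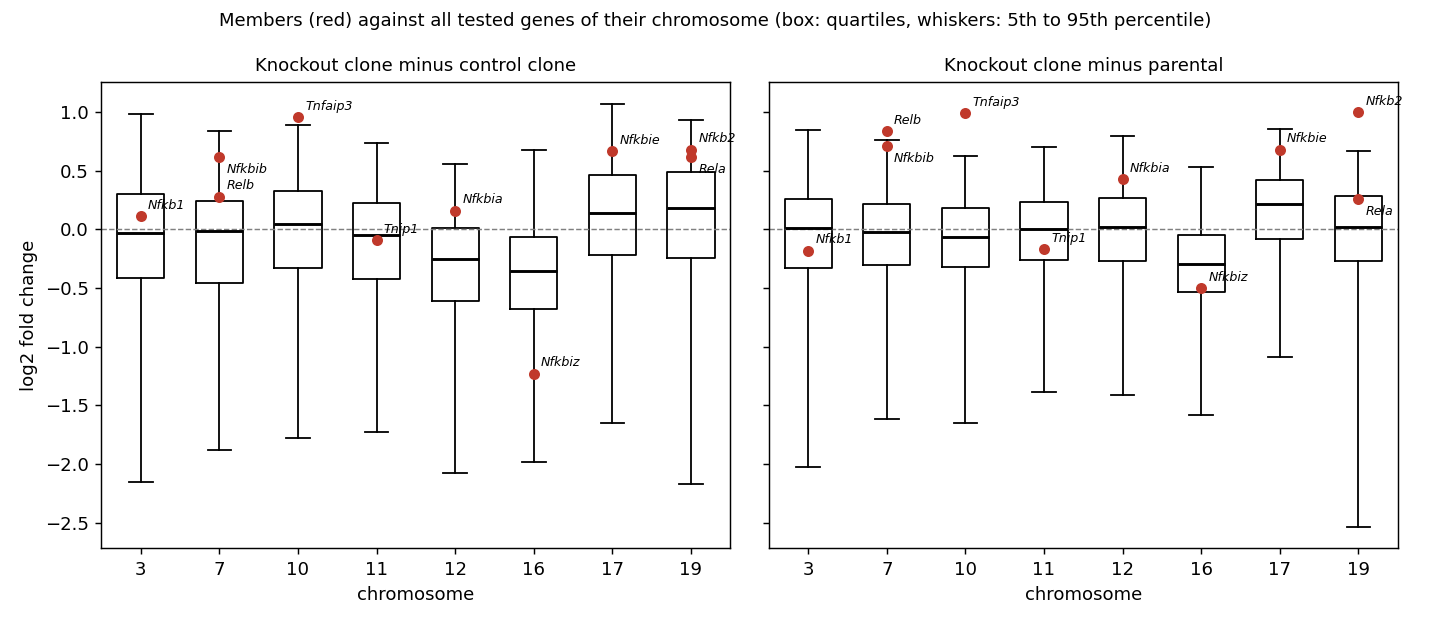
Log2 fold changes of the 10 genes (red points) over those of all tested genes on the same chromosome (boxes: quartiles and median; whiskers: 5th to 95th percentile), for the knockout clone against each other group. Tnfaip3 lies above the upper whisker of chromosome 10 in both panels, and Nfkbiz lies inside the box of chromosome 16 against the parental cells.

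Most tested receptors that feed the pathway were lower in the knockout clone. Of 18 listed receptor genes 14 were tested; 9 were called lower and 1 higher against the control clone, at a list median of -0.76 (log2), and 9 lower and 0 higher against the parental cells, at a list median of -0.50, where 24.2% and 18.3% of all tested genes were called lower. Of the 14 receptors, 7 were lower than in both groups, as were 13.4% of all tested genes. Il1r1, the signalling receptor for interleukin-1, was at 20.1, 19.9 and 16.8 CPM in knockout replicates 1 to 3, 51.2, 30.6 and 65 CPM in the same control replicates and 41.7, 44.4 and 49.4 CPM in the parental ones. It fell by 1.37 on the log2 scale from the control clone (SE 0.23, adjusted p 0.0013) and by 1.26 from the parental cells (SE 0.23, adjusted p 0.00322). Tlr3, a sensor of double-stranded RNA, fell by 1.23 (adjusted p 0.00691) and by 1.15 (adjusted p 0.0136); the second call was lost without knockout replicate 3 or parental replicate 3 (adjusted p 0.0545 and 0.0571). Tlr3 shares 381 exon bases with an antisense gene. The TNF receptor genes Tnfrsf1a and Tnfrsf1b, named for their role after the values were seen, stood at -0.72 and -1.45 (log2) relative to the control clone (adjusted p 0.00132 and 0.000566) and of -0.38 and -0.86 against the parental cells (adjusted p 0.0414 and 0.0128). The Tnfrsf1a call against the parental cells was lost in 9 of 17 alternatives, including each fit without a knockout or parental library and without control replicate 1 (adjusted p up to 0.15), and that of Tnfrsf1b without parental replicate 3 (adjusted p 0.0592).

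Most listed ligands had few counts. Of 12 ligand genes 4 were tested, of which 0 were called higher and 3 lower against the control clone and 2 lower against the parental cells, where 24.2% and 18.3% of all tested genes were called lower. Among the untested ones, Tnf held 8, 6 and 3 counts and Il1b 0 counts over the 3 libraries of the knockout, control and parental groups. Il18 was at 0.34 ± 0.106 CPM in the knockout group, 2.88 ± 1.52 in the control group and 2.53 ± 0.869 in the parental group (SD, n = 3), and it fell by 3.09 (adjusted p 0.00156) and by 2.89 (adjusted p 0.00354). Il33, an alarmin of epithelial cells, was at 33.2, 38.8 and 34.5 CPM in knockout replicates 1 to 3, 63.9, 36.5 and 141 CPM in the same control replicates and 89, 94.2 and 120 CPM in the parental ones. It was at -1.18 (log2) relative to the control clone (adjusted p 0.035), which was lost in 8 of 17 alternatives, and -0.51 without control replicate 3 (adjusted p 0.0823). The call was also lost without any 1 knockout library or parental replicate 1 or 2 (adjusted p up to 0.106). Against the parental cells it was -1.51 (adjusted p 0.0175), lost without knockout replicate 1 or 3 or parental replicate 3 (adjusted p 0.0675, 0.0617 and 0.0652).

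All 30 listed adaptors and kinases were tested. Against the control clone 7 were called higher and 7 lower, 46.7% of the list where 42.9% of all tested genes were called, a share near the background. Against the parental cells 7 were higher and 6 lower, 43.3% where 31.4% of all were called, and the list medians were 0.05 and 0.07. The kinase subunit genes differed among themselves. Ikbkg, which encodes the regulatory subunit NEMO, was at 59.9, 65.8 and 59.7 CPM in knockout replicates 1 to 3, 147, 99.5 and 135 CPM in the same control replicates and 121, 133 and 143 CPM in the parental ones, and stood at -1.04 relative to the control clone (SE 0.14, adjusted p 0.000333) and at -1.1 relative to the parental cells (log2, SE 0.14, adjusted p 0.000406). The catalytic subunit genes Chuk and Ikbkb were at 0.28 and 0.08 against the control clone (adjusted p 0.0119 and 0.408) and at 0.09 and 0.30 against the parental cells (adjusted p 0.388 and 0.0145); the Ikbkb call was lost without knockout replicate 1 or 3 or parental replicate 3 (adjusted p 0.0515, 0.0523 and 0.0606). Ikbkg shares 418 exon bases with G6pdx on the opposite strand, which was higher than in the control clone by 0.80 (adjusted p 0.032), so the division of reads between them is uncertain. For the noncanonical branch, Map3k14, which encodes the kinase NIK, was at 0.25 against the control clone (adjusted p 0.31) and 0.59 against the parental cells (adjusted p 0.0403). The latter call was lost without any 1 knockout or parental library (adjusted p 0.0635 to 0.132) and with a block for replicate number (0.58, adjusted p 0.0638). Birc2, which encodes a ubiquitin ligase of the complex that keeps NIK low, fell by 0.75 (adjusted p 0.000208) and by 0.73 (adjusted p 0.000389). Traf2 and Traf3, adaptors of the same complex, were called in neither knockout comparison, at 0.01 and 0.01 for Traf2 (adjusted p 0.927 and 0.938) and at -0.24 and 0.34 for Traf3 (adjusted p 0.212 and 0.11). Ripk1, a scaffold kinase of the TNF receptor, rose by 0.73 (adjusted p 4.72e-05) and by 0.36 (adjusted p 0.00334). Chuk, Ikbkb, Map3k14, Birc2, Traf2, Traf3 and Ripk1 were named for their roles after the values were seen. Ripk1 shares 241 exon bases with Serpinb6a on the opposite strand and 511 with the processed pseudogene Gm17084 on its own strand, so its counts are uncertain.

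Of 12 tested genes among the other regulators, 3 were called higher and 3 lower against the control clone, 50% of the list where 42.9% of all tested genes were called. Against the parental cells 1 was higher and 1 lower, 16.7% where 31.4% of all were called. Rel, the gene of the remaining transactivating subunit, named for its role after the values were seen, was at 0.50 against the control clone (adjusted p 0.00557) and 0.30 against the parental cells (adjusted p 0.0694). Tnip3, a relative of Tnip1, was set apart in the control clone, where the libraries differed widely: control replicates 1 and 3 were at 2.71 and 7.24 CPM, and control replicate 2, at 0.535 CPM, lay within the 0.118 to 0.706 CPM of the other groups. Its log2 fold change of 3.00 against the parental cells (adjusted p 0.0338) was 1.93 without control replicate 3 (adjusted p 0.0713) and was lost in 10 of 16 alternatives. Knockout against control clone gave -3.03 (adjusted p 0.0175), which 4 of 16 alternatives did not call, with -1.96 without control replicate 3 (adjusted p 0.0518).

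Genes known as NF-κB targets moved in both directions. Of 31 listed, 21 were tested; 9 were called higher and 3 lower against the control clone, at a list median of -0.14, and 11 higher and 2 lower against the parental cells, at 0.50. These are 57.1% and 61.9% of the tested targets, where 42.9% and 31.4% of all tested genes were called. In the knockout clone 8 were higher than in both groups, where 8.19% of tested genes were, and 2 were lower, where 13.4% were. The 8 were Lif, Ptgs2, Csf3, Cxcl1, Cxcl5, Csf2, Plau and Ier3; other targets that encode secreted factors, such as Csf1 (-0.23) and Ccl20 (-1.63), were not called against the control clone (adjusted p 0.49 and 0.0853). Lif, a cytokine of the interleukin-6 family, was at 27.4, 22.7 and 25.6 CPM in knockout replicates 1 to 3, 5.63, 6.9 and 4.83 CPM in the same control replicates and 7.42, 6.42 and 5.47 CPM in the parental ones, and rose by 2.13 (SE 0.16, adjusted p 2.1e-05) and by 1.97 (SE 0.16, adjusted p 5.29e-05). Ptgs2, the inducible enzyme of prostaglandin synthesis, was at 725, 694 and 645 CPM, at 66.7, 239 and 102 CPM and at 222, 181 and 141 CPM in the same order, and rose by 2.34 (SE 0.40, adjusted p 0.00138) and by 1.92 (SE 0.39, adjusted p 0.00544). Control replicate 2 was again the control library nearest to the knockout clone, and without it the first value was 3.04. Csf3 was higher by 1.67 (adjusted p 0.0128) and by 1.97 (adjusted p 0.00979) at a mean of 1.21 CPM, the first call lost without knockout replicate 1 or control replicate 1 (adjusted p 0.0552 and 0.056). Cxcl1, Cxcl5, Csf2, Plau and Ier3 were between 0.81 and 2.42 higher. These 5 genes, Csf1 and Ccl20 were named after the values were seen.

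The 2 targets lower than in both groups were Vcam1 and Icam1, adhesion molecules that bind leukocytes. Tnfaip2 set the control clone apart, at 73.4, 76.6 and 132 CPM there against 56.9 to 65.2 CPM in the 6 other libraries: it was at -0.60 in the knockout clone relative to it (adjusted p 0.033) and at 0.69 in it relative to the parental cells (adjusted p 0.0338). Each of these calls was lost in 7 of 17 alternatives, among them every fit without 1 knockout or parental library (adjusted p up to 0.108 and 0.11), and the values were -0.27 and 0.37 without control replicate 3. Tnfaip2 lies on chromosome 12, whose median over 466 genes was -0.25 and 0.29 in these comparisons. Vcam1 was at 10.2, 9.57 and 12.9 CPM in knockout replicates 1 to 3, 183, 99.5 and 150 CPM in the same control replicates and 107, 131 and 156 CPM in the parental ones, and fell by 3.73 (SE 0.25, adjusted p 9.6e-06) and by 3.6 (SE 0.25, adjusted p 2.2e-05) on the log2 scale. Icam1 was at 17.2, 17.5 and 17 CPM, at 47.7, 47.6 and 44.6 CPM and at 41.9, 40.8 and 44.2 CPM in the same order, and stood at -1.44 relative to the control clone (SE 0.08, adjusted p 2.66e-06) and at -1.3 relative to the parental cells (log2, SE 0.08, adjusted p 7.81e-06). Vcam1 and Icam1 fell in the same clone in which Lif and Ptgs2 rose. Icam1 and Tnfaip2 were named after the values were seen. Exons of Vcam1 and Icam1 overlap antisense genes by 61 and 511 bases. Of the targets that set another group apart, Traf1 was called lower in the control clone, at 0.105 to 0.262 CPM against 0.915 to 1.47 CPM in the parental libraries (log2 -2.61, adjusted p 0.0183, lost without parental replicate 2 or 3 at adjusted p 0.0618 and 0.0521), and Gadd45b was lower in the parental line, at 4.41 to 5.35 CPM against 11.7 to 27.7 CPM in the clones (1.80 higher in the control clone, adjusted p 0.00364, and 1.29 higher in the knockout clone, adjusted p 0.011). Between the clones Traf1 overlapped: the knockout libraries were at 0.244, 1.39 and 0.642 CPM, the first of them within the control range. It was called there at 1.88 (adjusted p 0.0443), but was at 1.11 without knockout replicate 2 (adjusted p 0.197), and the call was lost in 10 of 15 alternatives, among them the fits without any 1 control or parental library or without knockout replicate 2 or 3 (adjusted p up to 0.197). Since this is bulk RNA, fewer cells expressing a gene and less RNA per cell cannot be told apart for any of these genes.

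**Figure D5:**
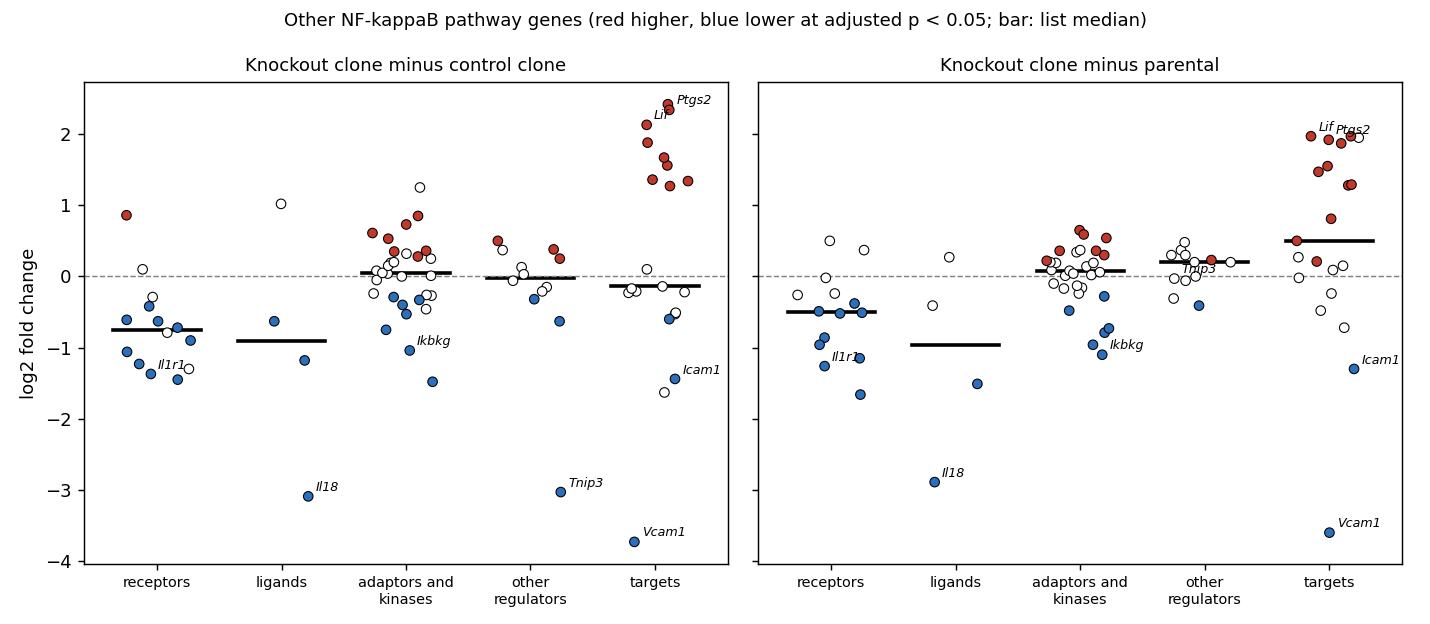
Log2 fold changes of the tested genes of the 5 other NF-κB lists in the knockout clone against the control clone and against the parental cells; red points were called higher, blue lower, white were not called, and bars are list medians. Receptors have medians of -0.76 and -0.50, while targets reach from Vcam1, at -3.73 and -3.60, to Lif and Ptgs2 near the top.

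Over the 5 lists together, 45 of 81 tested genes were called between the knockout and control clones (20 higher, 25 lower), 39 in the knockout clone against the parental cells (19 higher, 20 lower) and 18 in the control clone against them (12 higher, 6 lower). These are 55.6%, 48.1% and 22.2% of the 81, where 42.9%, 31.4% and 21.4% of all tested genes were called. The second count was 23 without parental replicate 3, and the third was 7, 5 or 9 without parental replicate 1, 2 or 3.

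For the 3 members whose group means spanned at least 1 on the log2 scale, the genes with the most similar profile over the 9 libraries were searched among 10011 others with a mean of at least 5 CPM. Likeness is the root mean square distance of centred log2 CPM, and it describes 9 libraries of 3 groups only. Nearest to Nfkb2 were Ppif, at a distance of 0.048, and Plin2, at 0.07, where Nfkb2 itself varied by 0.44. Nearest to Tnfaip3 were Enc1 (0.087) and Heatr1 (0.09), with log2 fold changes against the control clone of 1.09 and 0.90, and nearest to Nfkbiz were Ppcdc (0.092) and Pcnx (0.104), at -1.27 and -1.02. None of the 6 is a gene of the lists used here.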

How the data were processed

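RNA was measured by RNA-seq in 9 libraries in 3 groups of 3, from KAPA mRNA HyperPrep libraries of total RNA, per the labels' protocols. The authors deposited RSEM estimated counts per gene, all whole numbers, so rounding changed none. The submitters' processing notes name RSEM 1.3.0, STAR 2.5.2, DESeq2 1.10.1 and build GRCm38; the annotation release and strand setting are not given in the sources used here. RSEM divides shared reads by an estimate, so overlapping genes are uncertain. Symbols, positions and exon lengths are from GENCODE M21 (GRCm38), which held 54809 of 54838 identifiers; promoter windows are from RefSeq (GRCm38.p6). The κB consensus was searched after looser and stricter letters had been tried on the same windows.

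Counts were tested with edgeR 4.0.16 (glmQLFit and glmQLFTest, R 4.3.3) after filterByExpr (minimum count 10, minimum total 15) and TMM scaling, all 9 libraries in 1 fit with group as the term, with Benjamini-Hochberg adjustment over 13153 genes. SE was taken from the fold change and the F statistic. The code was first run on simulated counts, and the outcome is not given or used here. All library pairs differed by more than sampling noise (lowest chi-square per gene 4.75). Nothing says that replicates were separate cultures beyond the label of biological replicates, so p-values measure the spread between these libraries. That spread was estimated over all 9 libraries, also those of the group outside a comparison. It was unequal: the median SD of log2 CPM over 10020 genes was 0.203 (control), 0.0839 (parental) and 0.0753 (knockout).

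The members, lists and tests were chosen with earlier results of these data known. Genes were named by rule: all members, then, per list and group, up to 4 genes that both contrasts of the group called in 1 direction and placed at least 1 log2 unit away, and for members spanning at least 1 the 2 nearest profiles; genes named outside this rule are given as chosen after their values were seen. Alternatives were other scalings (DESeq2 1.42.0 size factors, total counts), filters (none, a mean of 5 CPM), tests (DESeq2, limma voom 3.58.1), a replicate block, fits restricted to the groups under comparison and each library left out; for the calls of named list genes they were added after seeing the data.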

Additional observations from a re-analysis of the deposited data

How the results depend on the processing

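Of 507 refits of single members, 452 kept direction and side of the threshold, 28 lost a call, 16 gained one and 11 changed sign, all of the last between the unedited clone and its line and none of them called. Those were Nfkbie with total counts (-0.03), Tnfaip3 with total counts (-0.01) and limma voom (-0.02), and fits leaving out 1 library, which ranged from -0.06 to 0.17 for Nfkbib, -0.10 to 0.13 for Nfkbie, -0.27 to 0.20 for Tnfaip3 and -0.15 to 0 for Tnip1. Called members numbered 5 to 7, 5 to 9 and 2 to 4 over the 17 alternatives in the 3 comparisons, in the order knockout against control, knockout against parental and control against parental. The fit of only the groups compared moved the genes called from 4131 to 6840 in the second and from 2814 to 1525 in the third, and the list genes called in the third from 18 to 7. In the second comparison this fit leaves out the control libraries, which had the widest spread (median SD of log2 CPM 0.203). In the third it leaves out the knockout libraries, which had the narrowest (0.0753). The cause, including the part of this unequal spread, was not tested. Leaving out 1 library gave 4301 to 7204, 2515 to 5693 and 1472 to 4102 genes called, and 35 to 56, 23 to 52 and 5 to 26 list genes. Scalings moved the median of all genes by at most 0.047. Replicate numbers did not pair the libraries: same-numbered libraries had correlated deviations over 0.1 in 3 of 9 pairs (-0.223 to 0.344), and 3 of 9 libraries were closest to their own number. The replicate block gave 5528, 3941 and 2492 genes called and 6, 7 and 4 members. Nfkbie did not reach the filter of a mean of 5 CPM and has no value there. Nfkbie, with as few as 34 counts in a library, is the member most limited by depth.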

Other observations

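Summed per length, RNA of the 4 subunit genes among the members was at 61.8, 60.1 and 56.3 CPM per kb in the knockout libraries. It was at 38.5, 46.3 and 36.8 in the control libraries and at 44.6, 44.6 and 42.5 in the parental libraries. The knockout libraries thus lay above all others. Rel, which is not a member, was left out of this sum and of the ratio below. The 3 classical IκB genes summed to 19.7, 23.1 and 20.1 CPM per kb in the knockout libraries, to 15.3, 16.6 and 17.2 in the control libraries and to 13.8, 13.6 and 15.6 in the parental libraries. Both sums were higher in the knockout clone, and their ratio overlapped between it and each other group, at 0.318 to 0.385 against 0.358 to 0.468 in the control clone and 0.305 to 0.366 in the parental cells. Nfkbia made up 51.8% to 55% of the IκB sum in the knockout libraries and 55.8% to 66.3% in the control libraries. These sums were chosen after the values of the single genes were seen and were not tested.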
